A study of Homo sapiens with 12 samples.

Results

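The genes described here are *TP63*, *GRHL1*, *GRHL2*, *ESRP1*, *ESRP2*, *CDH1*, *EPCAM*, *KRT8* and *KRT18*, 9 genes of epithelial identity, and *VIM*, which encodes the mesenchymal intermediate filament protein vimentin. They were taken by gene name from both raw count tables and joined by Ensembl identifier without its version, and all 10 were found among the 79317 identifiers listed in either table (30358 in both). Poly-A RNA was sequenced from cultures of 2 wild-type human cancer lines, KYSE30, labelled esophageal squamous cell carcinoma, and U138MG, labelled glioblastoma. Each line was cultured for 48 h with 100 nM PTDSS1i, a small-molecule inhibitor of the phosphatidylserine synthase PTDSS1, or with the DMSO vehicle, and each of the 4 groups held 3 cultures described as biological replicates. Levels are given as normalized CPM, counts relative to the library total, scaled by edgeR's TMM factors within a line, and changes as log2 fold changes of PTDSS1i against DMSO.

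Epithelial cells are held together by E-cadherin, the product of *CDH1*, and carry keratin filaments built from pairs of a type II and a type I keratin, of which *KRT8* and *KRT18* are the pair of simple epithelium. Grainyhead-like factors and p63 maintain the epithelial gene programme, and the ESRP proteins direct the splicing of many transcripts to their epithelial forms. Cells that take on mesenchymal features usually lose these genes and gain vimentin, which is also abundant in most glioma lines.

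In KYSE30, PTDSS1i was followed by higher levels of 6 of the 9 epithelial genes and of *VIM*, and by lower levels of *TP63* and *GRHL2*. *VIM* moved furthest, from 3.87 ± 0.984 to 25.5 ± 2.91 normalized CPM (SD, n = 3), while *CDH1* rose by 0.56 on the log2 scale over the same 48 h. In the libraries labelled U138MG, *CDH1*, *KRT8*, *ESRP2*, *GRHL1*, *GRHL2* and *TP63* fell, *EPCAM*, *KRT18* and *ESRP1* rose, and *VIM* was near the detection limit in both treatments. *CDH1*, *KRT8* and *GRHL1* rose in one line and fell in the other.

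The libraries held 18800932 to 26514658 counts each, and 3 counts corresponded to at most 0.160 CPM, a limit that covers counting error only. The summed level of 10 squamous markers lay between 295 and 302 normalized CPM in the KYSE30 DMSO libraries and between 6109 and 6935 in the U138MG DMSO libraries, and *TP63* is one of the 10. *KRT15*, with 4629 normalized CPM, and *KRT5* made up most of the U138MG sum. In DMSO, *TP63*, *DSG3*, *PKP1* and *TRIM29* were also higher in U138MG, while *SOX2* and *KRT6A* (5.06 against 0.464) were higher in KYSE30. *KRT14* and *CALML3* had at most 18 counts in any library. *KRT5*, a keratin of squamous epithelium, had at most 3 counts in each KYSE30 library and 1399 normalized CPM in U138MG DMSO. Of 11 glial markers, the summed level in DMSO was 101 to 108 normalized CPM in KYSE30 and 43.5 to 46.5 in U138MG, and after PTDSS1i 98.1 to 101.3 and 15.3 to 16.8. *SOX2*, which squamous and glial cells share, made up most of it in DMSO, with 96.1 and 37.0 normalized CPM. *GFAP*, which encodes the glial filament protein, had 2.24 normalized CPM in U138MG DMSO, and *S100B*, *OLIG1* and *OLIG2* had 0 counts in all U138MG libraries. The libraries labelled U138MG therefore hold high epithelial levels and nearly none of the defining glial markers, and they are named by their label throughout. Each line is its own batch in the labels, so line and batch cannot be told apart, and the labels give all 12 libraries the growth medium of KYSE30 while the methods give U138MG another one. The samples are bulk RNA, so fewer cells of a kind and less RNA per cell cannot be told apart. The p-values rest on the spread between 3 cultures a group.

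Positions on GRCh38 are given for 8 of the genes, chr3:189631416-189897279 (*TP63*, plus strand), chr2:9951693-10002277 (*GRHL1*, plus), chr16:68229111-68238102 (*ESRP2*, minus), chr16:68737225-68835548 (*CDH1*, plus), chr2:47345158-47387601 (*EPCAM*, plus), chr12:52897187-52949954 (*KRT8*, minus), chr12:52948871-52952901 (*KRT18*, plus) and chr10:17228259-17237593 (*VIM*, plus), as given by the GENCODE annotation. The use of strand in the counting is not given in the sources used here, so reads in exons shared with a gene of the other strand cannot be told apart. *KRT8* and *KRT18* are neighbours whose exons share 525 bases on opposite strands, 7.63% of the exon bases of *KRT8* and 16.3% of those of *KRT18*. *VIM* shares 641 exon bases, 12.4% of its own, with the antisense gene *VIM-AS1*, and *ESRP2* shares 149 with *NFATC3*. The counts also do not separate transcript isoforms, so the forms of p63 with and without the transactivation domain are summed in *TP63*.

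*VIM* is shown by the sequence upstream of its start, because its change was the furthest of the 10. The RefSeq promoter table of GRCh38.p14 held 4 of the 10 genes (*TP63*, *GRHL1*, *KRT8* and *VIM*), and the 250 bases before the *VIM* start, chr10:17227991-17228240 on the plus strand, read 5′ to 3′ with a GC box, GGGCGG, in capitals.
VIM upstream: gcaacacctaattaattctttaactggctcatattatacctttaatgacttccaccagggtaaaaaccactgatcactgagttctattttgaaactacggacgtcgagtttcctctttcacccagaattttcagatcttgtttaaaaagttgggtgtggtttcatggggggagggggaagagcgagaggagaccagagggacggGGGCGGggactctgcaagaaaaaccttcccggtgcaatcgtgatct
GC box, first base at -46 from the start, was the one match in the 300 bases of the *VIM* entry among 7 motifs searched on both strands. CAGGTG, the E-box bound by SNAI and ZEB factors, the Grainyhead-like motif AACCNGTT, the AP-1 motif TGANTCA, the composite C/EBP and ATF motif TGATGNAA, and the CCAAT and TATA boxes had no match there. The TATA box was searched as TATAAA, and each motif was searched on its own, so that matches could overlap. Of 35116 promoters of the same length, 45.0% held the GC box, 20.6% the E-box, 1.73% the Grainyhead-like motif, 7.71% the AP-1 motif, 3.62% the composite motif, 34.6% the CCAAT box and 11.5% the TATA box.

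Levels in DMSO were compared between genes per kilobase of exon. The keratins were the most abundant members in both lines, with 731 ± 41.1 normalized CPM per kb for *KRT18* and 648 ± 46.2 for *KRT8* in KYSE30 and 201 ± 2.19 and 255 ± 8.50 in U138MG (SD, n = 3). *EPCAM* and *CDH1* followed, with 107 ± 2.81 and 80.3 ± 2.55 normalized CPM per kb in KYSE30 and 93.6 ± 2.81 and 71.3 ± 0.644 in U138MG. *GRHL1* and *VIM* were lowest in both lines, and *VIM* had 0.749 ± 0.191 normalized CPM per kb in KYSE30 and 0.0379 ± 0.0120 in U138MG. The ranges of *KRT8* and *KRT18* over the KYSE30 libraries overlapped on this scale, though *KRT18* was above *KRT8* within each library. In KYSE30, *ESRP2* (13.1 ± 0.331) and *TP63* (12.7 ± 0.696) did not differ beyond their spread. With the longest transcript as the length, *KRT8* was above *KRT18* in KYSE30 as well, with 1558 and 1127 normalized CPM per kb.

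**Figure D1:**
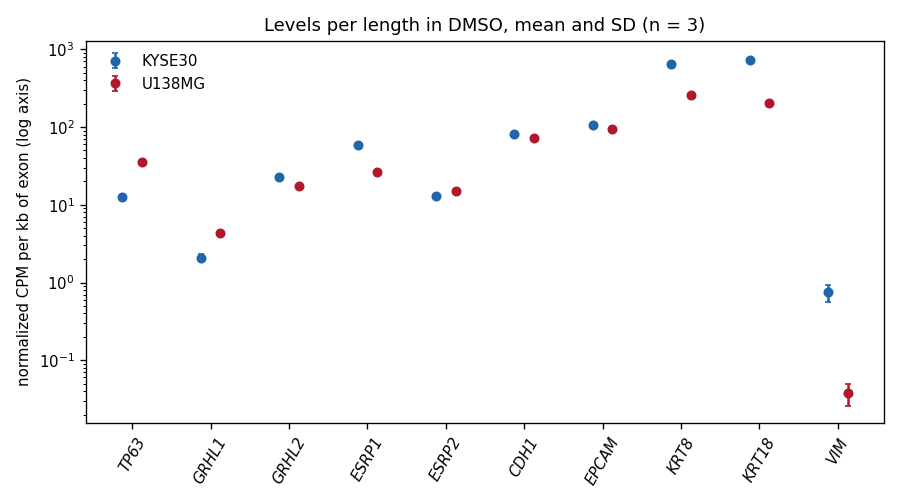
Normalized CPM per kilobase of exon in DMSO for each of the 10 genes, on a log axis, with points for the mean of 3 libraries and bars for the SD, in blue for KYSE30 and red for U138MG. *KRT8* and *KRT18* lie highest, *VIM* lowest, at 0.749 in KYSE30 and 0.0379 in U138MG.

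Between the lines in DMSO, the 9 epithelial genes all differed (adjusted p under 0.05 in the quasi-likelihood test of edgeR, fitted to both lines over 18405 genes and adjusted by Benjamini-Hochberg), where 83.8% of the 13990 genes that passed the low-count filter within each line did. Over 2-fold, *TP63* (log2 1.45, U138MG minus KYSE30) and *GRHL1* (1.05) were higher in U138MG, a direction called for 17.9% of these genes. *ESRP1* (-1.15), *KRT8* (-1.37) and *KRT18* (-1.88) were over 2-fold lower, against 18.0% of these genes. At any fold, *TP63*, *GRHL1* and *ESRP2* were higher in U138MG (40.5% of these genes) and the other 6 lower (43.3%). *CDH1* (-0.19, interval -0.27 to -0.11) and *EPCAM* (-0.21, -0.30 to -0.13) differed by much less than the keratins. The tables of the lines list different numbers of genes (30984 in KYSE30 and 78691 in U138MG). The part of gene annotation in the differences between lines was not tested. *VIM* did not pass the filter in U138MG and was not tested between the lines. In DMSO it had 3 to 6 counts a library in U138MG and 58 to 100 in KYSE30.

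In KYSE30, 9 of the 10 genes had an adjusted p under 0.05 for PTDSS1i against DMSO over 16389 genes tested, where 62.0% of all genes passed. Of these, 7 rose (30.1% of all genes) and 2 fell (32.0%), and only *VIM* rose over 2-fold (6.40%). No member fell over 2-fold (7.04% of all genes) by edgeR, at an unadjusted p under 0.05 (0 genes) or by DESeq2 (0). In all 10 the normalized CPM of the treated and control libraries did not overlap, as for 66.3% of all genes, though those of *ESRP2* did by library size alone. The median log2 fold change of the members was 0.31, beside -0.03 over all tested genes.

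In U138MG, 9 members passed the low-count filter and all 9 had an adjusted p under 0.05 over 17666 genes tested, where 67.5% passed. *ESRP1*, *EPCAM* and *KRT18* rose (33.9% of all genes) and 6 fell (33.6%). None of the 9 changed over 2-fold in either direction by edgeR, at an unadjusted p under 0.05 (0 genes) or by DESeq2 (0), where 8.19% of all genes rose and 11.6% fell by that much. The normalized CPM of the 9 genes did not overlap between treatments, as for 71.4% of all genes, though those of *ESRP1* did by library size alone. The median log2 fold change of the 9 was -0.36, beside -0.03 over all tested genes.

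**Figure D2:**
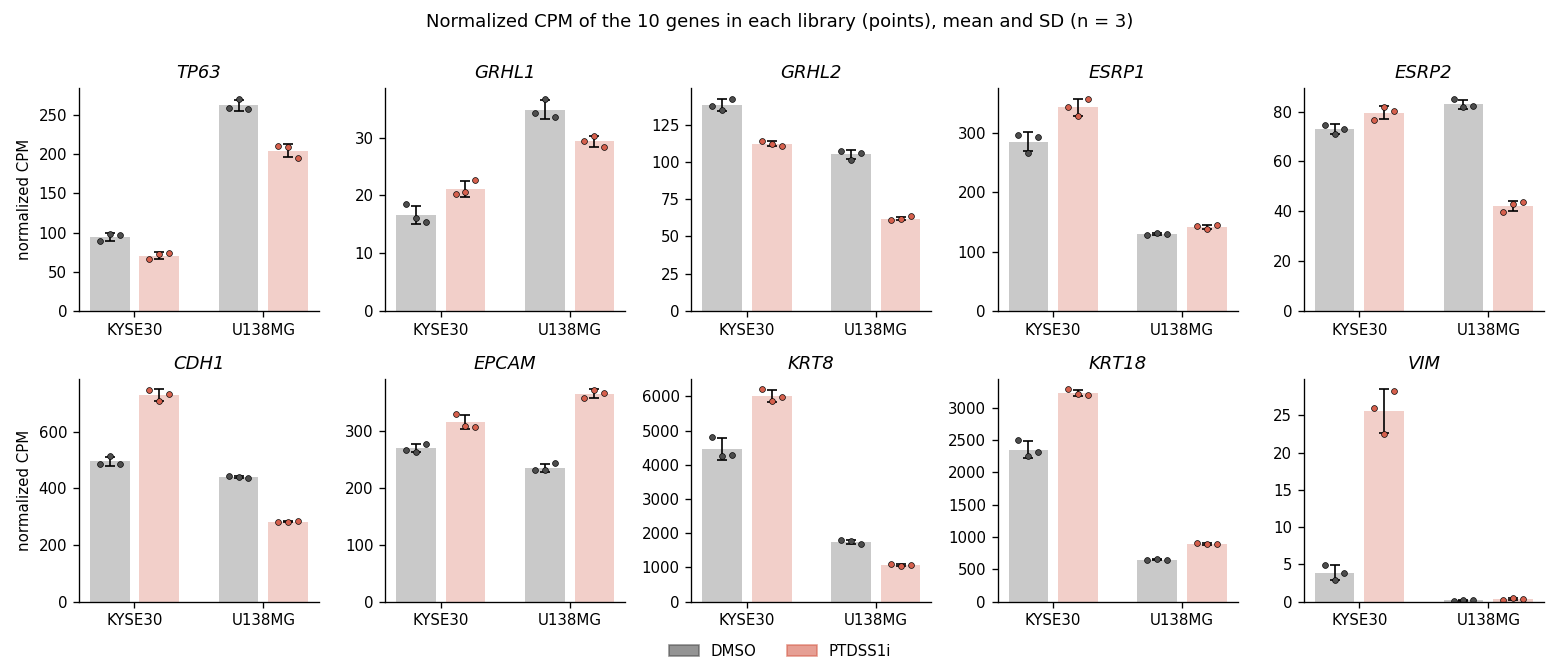
Normalized CPM (linear axis from 0) of each gene in each library, with points for the 3 libraries of a group, bars for the mean and error bars for the SD, in grey for DMSO and red for PTDSS1i. The treatments are apart for all 10 genes in KYSE30, and *CDH1*, *KRT8* and *GRHL1* go up in KYSE30 and down in U138MG.

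*TP63* encodes p63, the master regulator of squamous epithelium, and it fell in both lines. Its normalized CPM in KYSE30 were 88.7, 97.8 and 97.6 in DMSO and 65.8, 72.2 and 73.9 in PTDSS1i, which gave a log2 fold change of -0.42 ± 0.059 (SE) at an adjusted p of 2.17e-06. In U138MG they were 259, 271 and 258 in DMSO and 210.1, 209 and 195 in PTDSS1i, which gave a log2 fold change of -0.36 ± 0.036 (SE) at an adjusted p of 9.06e-10. All treated libraries lay below all controls in each line, and the U138MG libraries lay above those of KYSE30 under either treatment. The effects differed by 0.02 between the lines, with a 95% interval of -0.11 to 0.16 (adjusted p = 0.827).

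*GRHL1* and *GRHL2* encode Grainyhead-like transcription factors that bind junction genes in epithelia. *GRHL2* in KYSE30 had 137, 135 and 142 normalized CPM in DMSO and 114, 112 and 111 in PTDSS1i, which gave a log2 fold change of -0.30 ± 0.050 (SE) at an adjusted p of 1.92e-05. Its U138MG values were 108, 102 and 106 in DMSO and 61.3, 61.5 and 63.4 in PTDSS1i, which gave a log2 fold change of -0.76 ± 0.042 (SE) at an adjusted p of 1.72e-15. *GRHL2* thus fell in both lines, and further in U138MG, with a difference of effects of -0.50 (adjusted p = 7.42e-08). *GRHL1*, the less abundant of the pair, had 18.4, 16.1 and 15.4 normalized CPM in DMSO and 20.2, 20.5 and 22.7 in PTDSS1i in KYSE30, which gave a log2 fold change of 0.35 ± 0.085 (SE) at an adjusted p of 0.00121. For U138MG the values were 34.2, 36.7 and 33.6 in DMSO and 29.4, 30.3 and 28.4 in PTDSS1i, which gave a log2 fold change of -0.25 ± 0.062 (SE) at an adjusted p of 8.98e-04. *GRHL1* rose in KYSE30 and fell in U138MG, and the effects differed by -0.64 (adjusted p = 6.20e-06).

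*ESRP1* and *ESRP2* encode the epithelial splicing regulatory proteins. *ESRP1* in KYSE30 rose from 296, 267 and 293 normalized CPM in DMSO to 344, 329 and 358 in PTDSS1i, which gave a log2 fold change of 0.27 ± 0.054 (SE) at an adjusted p of 2.17e-04. In U138MG it had 128, 132 and 130.0 in DMSO and 143, 139 and 144 in PTDSS1i, which gave a log2 fold change of 0.13 ± 0.036 (SE) at an adjusted p of 0.00298. The small rise of *ESRP1* in U138MG depends on the scaling: by library size alone, which moves the median of all genes by -0.15, its log2 fold change was -0.02 (adjusted p = 0.633), and with upper-quartile scaling it was -0.02 as well (adjusted p = 0.661). *ESRP2* moved more. It had 85.1, 81.7 and 82.2 normalized CPM in U138MG DMSO and 39.8, 42.9 and 43.7 in PTDSS1i, which gave a log2 fold change of -0.98 ± 0.048 (SE) at an adjusted p of 1.09e-16, and its mean fell by 49.3%. In KYSE30 its values were 74.8, 71.1 and 73.1 in DMSO and 76.7, 81.6 and 80.2 in PTDSS1i, which gave a log2 fold change of 0.12 ± 0.053 (SE) at an adjusted p of 0.0508, and this is the 1 member of KYSE30 that missed the threshold. Without KYSE30 DMSO replicate 1 or PTDSS1i replicate 1 it passed, with adjusted p of 0.0222 and 0.0467. Over all alternatives its log2 fold change there ranged from 0.02 to 0.16, with adjusted p up to 0.773. Scaled by library size alone, its CPM overlapped, with 75.6, 75.0 and 76.2 in DMSO and 73.2, 79.5 and 77.0 in PTDSS1i. The effects of *ESRP2* differed by -1.14 between the lines (adjusted p = 1.60e-14), and those of *ESRP1* by -0.18 (adjusted p = 0.0244). The difference for *ESRP1* was no longer called without KYSE30 DMSO replicate 2, KYSE30 PTDSS1i replicate 3, U138MG DMSO replicate 2 or U138MG PTDSS1i replicate 2, with adjusted p between 0.0520 and 0.0604.

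*CDH1* encodes E-cadherin, the adhesion protein of epithelial junctions. In KYSE30, *CDH1* had 488, 514 and 486 normalized CPM in DMSO and 747, 708 and 735 in PTDSS1i, which gave a log2 fold change of 0.56 ± 0.051 (SE) at an adjusted p of 4.63e-09. In U138MG, *CDH1* had 444, 442 and 436 in DMSO and 283, 281 and 284 in PTDSS1i, which gave a log2 fold change of -0.64 ± 0.032 (SE) at an adjusted p of 2.10e-16. From nearly equal levels in DMSO, *CDH1* rose by 47.2% in KYSE30 and fell by 35.8% in U138MG on the means, and the difference of effects was -1.24 (adjusted p = 1.73e-17). *EPCAM* encodes an epithelial surface adhesion protein. It had 268, 264 and 278 normalized CPM in KYSE30 DMSO and 331, 309.8 and 307 in PTDSS1i, which gave a log2 fold change of 0.23 ± 0.051 (SE) at an adjusted p of 5.57e-04. The U138MG libraries had 231, 232 and 244 in DMSO and 359, 373 and 367 in PTDSS1i, which gave a log2 fold change of 0.64 ± 0.034 (SE) at an adjusted p of 9.43e-16. *EPCAM* rose in both lines, further in U138MG, with a difference of effects of 0.37 (adjusted p = 7.32e-06), the opposite order to *CDH1*.

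*KRT8* and *KRT18* encode the type II and type I partners of the simple epithelial filament. *KRT18* in KYSE30 had 2501, 2246 and 2311 normalized CPM in DMSO and 3282, 3219.6 and 3197 in PTDSS1i, which gave a log2 fold change of 0.46 ± 0.057 (SE) at an adjusted p of 4.21e-07. Its U138MG libraries had 643, 654 and 641 in DMSO and 904, 886 and 888 in PTDSS1i, which gave a log2 fold change of 0.47 ± 0.032 (SE) at an adjusted p of 2.43e-13. *KRT18* rose by a like amount in both lines, with a difference of effects of -0.03 and a 95% interval of -0.16 to 0.10 (adjusted p = 0.740). *KRT8* in KYSE30 had 4825, 4262 and 4286 in DMSO and 6203, 5856 and 5977 in PTDSS1i, which gave a log2 fold change of 0.43 ± 0.061 (SE) at an adjusted p of 2.81e-06. In U138MG it had 1798, 1776 and 1687 in DMSO and 1103, 1046 and 1086 in PTDSS1i, which gave a log2 fold change of -0.70 ± 0.035 (SE) at an adjusted p of 1.48e-16. *KRT8* therefore rose in KYSE30 with its partner and fell in U138MG while its partner rose, and its effects differed by -1.17 (adjusted p = 7.40e-15). Annotated *KRT8* pseudogenes held 0.613% of the *KRT8* counts in KYSE30 and 0.926% in U138MG, and *KRT18* pseudogenes 0.146% and 0.185% of the *KRT18* counts, so reads assigned to these near copies were few.

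**Figure D3:**
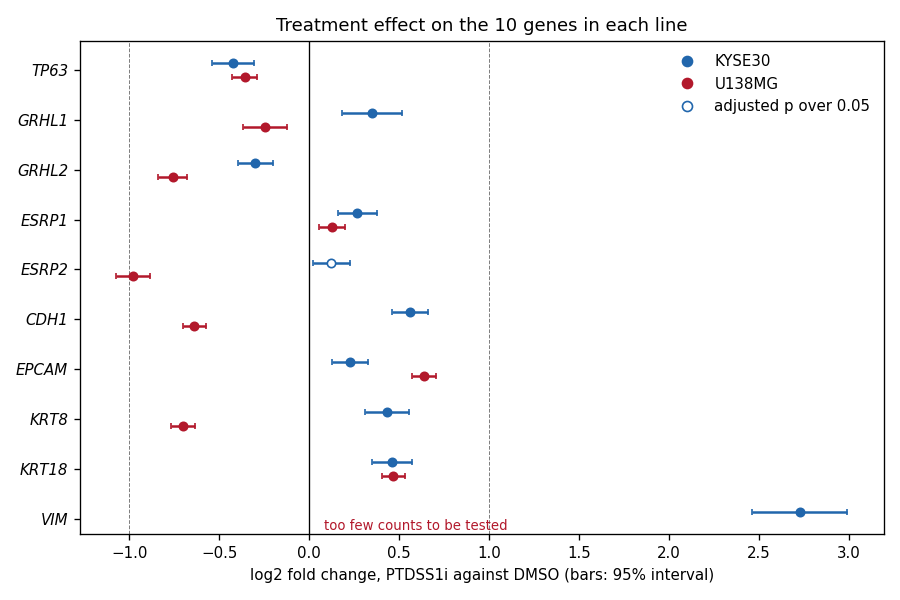
Log2 fold change of PTDSS1i against DMSO for each gene, with bars for the 95% interval, blue for KYSE30 and red for U138MG, an open point where the adjusted p is over 0.05, and dashed lines at a 2-fold change. *VIM* in KYSE30, at 2.72, is the one point beyond a line, and *ESRP2* in U138MG lies just inside at -0.98.

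*VIM* in KYSE30 had 4.89, 2.92 and 3.78 normalized CPM in DMSO, from 58 to 100 counts a library, and 26.0, 22.4 and 28.2 in PTDSS1i, from 440 to 683 counts. The treated libraries lay far above the controls, which gave a log2 fold change of 2.72 ± 0.14 (SE) at an adjusted p of 1.28e-11, a 6.61-fold rise. The DMSO libraries varied by 25.5% of their mean, the widest spread of a member in KYSE30, and leaving out each library in turn gave log2 fold changes of 2.56 to 2.92. In U138MG, *VIM* had 0.150, 0.171 and 0.266 in DMSO and 0.263, 0.506 and 0.399 in PTDSS1i, 13 counts in all against 27, and it did not pass the low-count filter. The U138MG treatments overlapped, and without the filter the log2 fold change was 1.00 (adjusted p = 0.290). Even after PTDSS1i, the KYSE30 level of *VIM* per kilobase was below that of *CDH1*, *EPCAM* and the keratins. A difference of its effect between the lines was not tested, because the fit of both lines keeps *VIM* only through its KYSE30 counts. *VIM-AS1*, the antisense neighbour, rose from 0.551 ± 0.249 to 2.30 ± 0.540 normalized CPM in KYSE30 (log2 2.04, adjusted p = 3.62e-06), and held 13 counts over all U138MG libraries. With 7 to 17 counts a library in KYSE30 DMSO, *VIM-AS1* passed the low-count filter there only with its treated libraries, so the filter set its direction.

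Between the lines, the effect of PTDSS1i differed for 7 of the 9 epithelial genes, where 61.2% of the 13990 genes that passed the filter within each line did. It was lower in U138MG for 6 of them (28.8% of these genes) and higher for *EPCAM* (32.4%), and over 2-fold lower for *ESRP2*, *CDH1* and *KRT8* (9.40%). None was over 2-fold higher by edgeR, at an unadjusted p under 0.05 (0 genes) or by DESeq2 (0), where 7.69% of these genes were. These differences come from a fit that scales all 12 libraries together, so they are not the exact subtraction of the values of each line. Of the same 13990 genes, 6.13% rose in KYSE30 and fell in U138MG, which *GRHL1*, *CDH1* and *KRT8* did. *ESRP1*, *EPCAM* and *KRT18* rose in both (18.5% of all genes), *TP63* and *GRHL2* fell in both (15.5%), and no member fell in KYSE30 and rose in U138MG (8.81%).

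Ratios of counts within a library do not depend on the scaling, and 4 pairs of members were compared this way, chosen after their values were seen. The keratin partners kept a ratio of *KRT8* to *KRT18* of 1.93, 1.90 and 1.86 in KYSE30 DMSO and 1.89, 1.82 and 1.87 in PTDSS1i, and these overlapped. In U138MG the ratio was 2.79, 2.72 and 2.63 in DMSO and 1.22, 1.18 and 1.22 in PTDSS1i, a log2 change of -1.17. The ratio of *ESRP1* to *ESRP2* went from 1.57 ± 0.0605 to 3.38 ± 0.197 in U138MG and from 3.91 ± 0.138 to 4.32 ± 0.255 in KYSE30 (SD, n = 3). *CDH1* to *EPCAM* was nearly the same in both lines in DMSO, 1.84 ± 0.0999 in KYSE30 and 1.87 ± 0.0715 in U138MG, and was 2.31 ± 0.0703 and 0.773 ± 0.0174 after PTDSS1i. *GRHL2* to *GRHL1* was lower after PTDSS1i in both lines, from 8.36 ± 0.912 to 5.32 ± 0.406 in KYSE30 and from 3.03 ± 0.222 to 2.11 ± 0.106 in U138MG. Apart from *KRT8* to *KRT18* in KYSE30 (exact two-sided permutation p = 0.4), the treatments did not overlap in the other 7 of the 8 tests, each with an exact two-sided permutation p of 0.1 (0.114 after Benjamini-Hochberg adjustment over the 8), the smallest that 3 libraries against 3 can give and above 0.05.

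**Figure D4:**
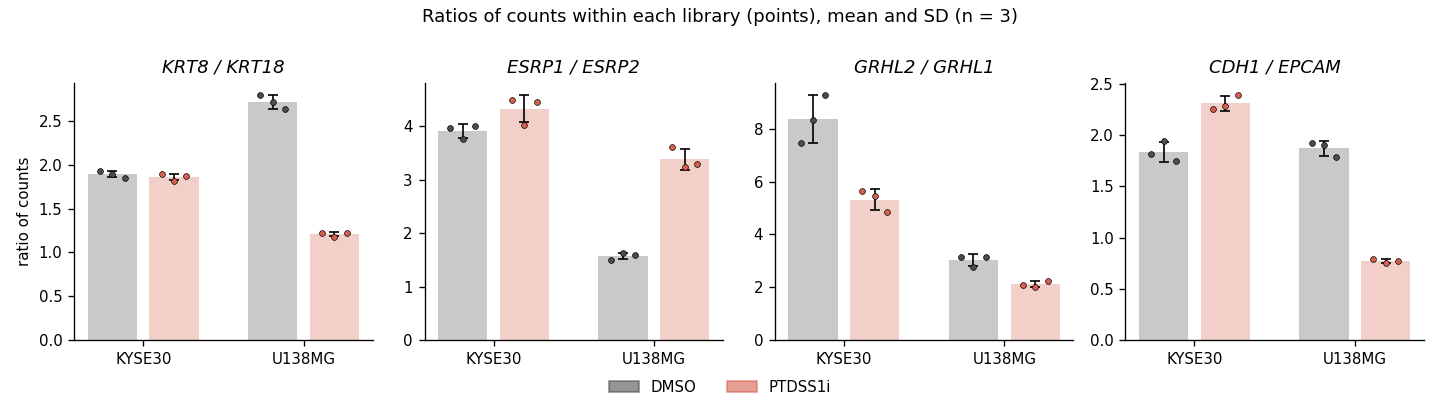
Ratio of the counts of 2 genes within each library (linear axis from 0), with points for libraries, bars for the mean and error bars for the SD (n = 3), in grey for DMSO and red for PTDSS1i. In U138MG, *KRT8* to *KRT18* goes from 2.71 to 1.21 and *ESRP1* to *ESRP2* from 1.57 to 3.38, while in KYSE30 *KRT8* to *KRT18* stays at 1.89 and 1.86.

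The surrounding epithelial programme is given by lists of genes, to be read against all tested genes, of which 30.1% rose and 32.0% fell in KYSE30 and 33.9% rose and 33.6% fell in U138MG, with a median log2 fold change of -0.03 in each line. Of 16 further epithelial transcription factors, 9 of 14 tested rose (64.3%) and 3 fell (21.4%) in KYSE30, with a median log2 fold change of 0.45. In U138MG 6 of 15 tested rose (40%) and 9 fell (60%), with a median of -0.46. *KLF4*, a factor of epithelial differentiation, rose in KYSE30 from 55.7 ± 2.07 to 145 ± 1.54 normalized CPM (log2 1.38), and *FOXA2*, a factor of endodermal epithelium, rose in both lines (log2 1.22 in KYSE30 and 2.51 in U138MG). *TP73*, a relative of *TP63*, fell in both lines, with a log2 fold change of -1.37 in KYSE30 and, in U138MG, from 27.9 ± 1.15 to 3.25 ± 0.359 normalized CPM (log2 -3.10). *FOXA1* fell in KYSE30 (log2 -0.66), *EHF*, an ETS factor of epithelia, fell in U138MG (-1.14), and *GRHL3*, the remaining Grainyhead-like gene, rose in U138MG (0.63).

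Of 24 genes of epithelial junctions and polarity, 16 of 24 tested rose (66.7%) and 3 fell (12.5%) in KYSE30 (all genes: 30.1% and 32.0%), with a median of 0.41. In U138MG 15 of 24 tested rose (62.5%) and 9 fell (37.5%) (all genes: 33.9% and 33.6%), with a median of 0.19. The tight junction gene *CLDN3* rose in both lines, in KYSE30 from 28.5 ± 2.61 to 75.5 ± 6.59 normalized CPM (log2 1.41) and in U138MG by 1.37, with *TJP3* in KYSE30 (1.04) and *CLDN1* in U138MG (1.12). *CGN*, which encodes cingulin, and *NECTIN1*, a junction adhesion gene, fell in both lines, with log2 fold changes of -0.24 and -0.32 in KYSE30 and -0.78 and -0.62 in U138MG. Of 15 epithelial surface genes and splicing partners, 12 of 15 tested rose (80%) and 0 fell in KYSE30, with a median of 0.52. In U138MG 6 of 15 tested rose (40%) and 4 fell (26.7%), with a median of 0.01. *PRSS8*, an epithelial surface protease, rose in both lines, by 0.92 and 1.27, *MYH14* rose in KYSE30 (1.32) and the protease inhibitor gene *SPINT2* in U138MG (0.64). *ERBB3* and *CD24* fell in U138MG (log2 -0.81 and -0.72).

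Of 5 other keratins of simple epithelium, 2 of 4 tested rose (50%) and 0 fell in KYSE30 (all genes: 30.1% and 32.0%). In U138MG 4 of 5 tested rose (80%) and 1 fell (20%) (all genes: 33.9% and 33.6%). *KRT20*, which rose there from 0.105 to 1.12 normalized CPM, passed the low-count filter only with its treated libraries. *KRT19* rose in KYSE30 from 2692 ± 207 to 3989 ± 136 normalized CPM (log2 0.57), and in U138MG it fell from 31.3 ± 1.63 to 8.86 ± 0.860 normalized CPM (log2 -1.82). *KRT23* and *KRT80* rose in U138MG from 7.03 ± 0.856 to 93.6 ± 7.93 normalized CPM (log2 3.73) and from 6.13 ± 0.824 to 56.1 ± 1.95 normalized CPM (log2 3.18). *KRT80* also rose in KYSE30 (log2 0.16), a call lost without PTDSS1i replicate 1 and by library size alone. Of 10 squamous markers, *TP63* included, 4 of 7 tested rose (57.1%) and 1 fell (14.3%) in KYSE30, with *KRT15* at 0.96 and *KRT6A* at 0.83, and 2 of 8 tested rose (25%) and 6 fell (75%) in U138MG. *KRT6A* rose in U138MG from 0.464 to 1.29 normalized CPM, but passed the low-count filter there only with its treated libraries. The basal keratin *KRT15* fell in U138MG from 4629 ± 334 to 482 ± 42.3 normalized CPM (log2 -3.26), and *SOX2* from 37.0 ± 1.65 to 4.52 ± 0.467 normalized CPM (log2 -3.03), while the desmosomal cadherin *DSG3* rose by 0.34. The summed level of the squamous list in U138MG was 1348 to 1481 normalized CPM after PTDSS1i, below all DMSO libraries, and its part in the falls of *TP63*, *CDH1* and *KRT8* was not tested.

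**Figure D5:**
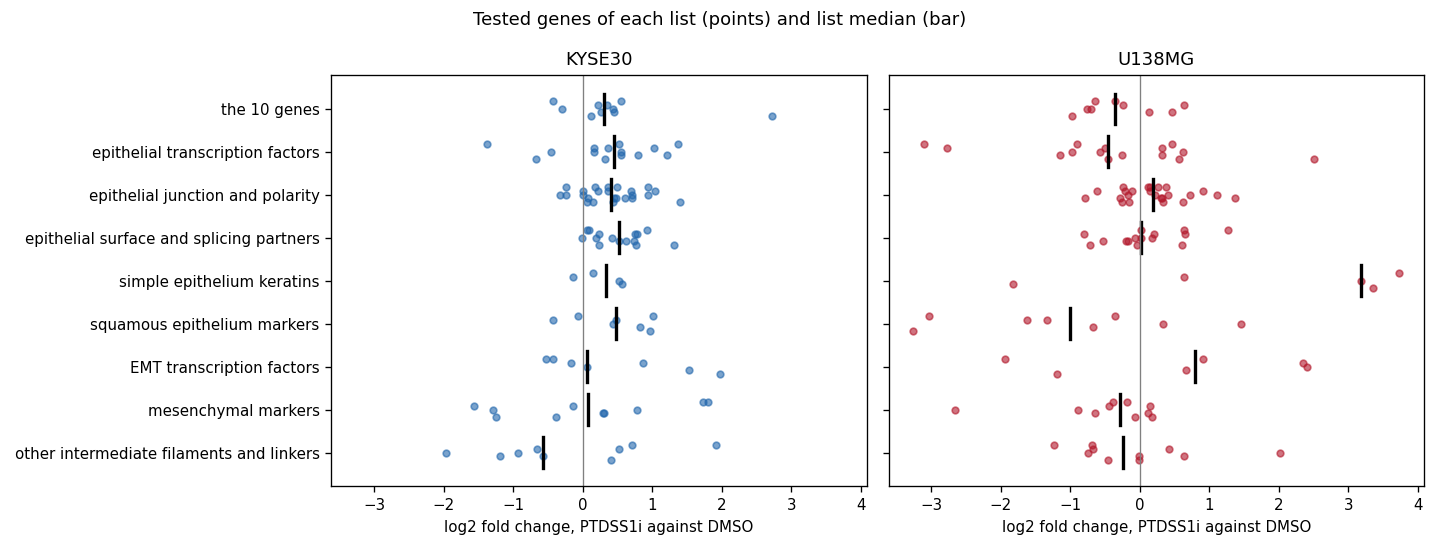
Log2 fold change of PTDSS1i against DMSO of every tested gene of each list (points) with the list median (black bar), KYSE30 left and U138MG right. The epithelial transcription factors have medians of 0.45 in KYSE30 and -0.46 in U138MG, and the mesenchymal markers 0.08 and -0.29.

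The rise of *VIM* in KYSE30 was set beside mesenchymal genes and other intermediate filaments. Of 15 mesenchymal markers, 5 of 10 tested rose (50%) and 4 fell (40%) in KYSE30 (all genes: 30.1% and 32.0%), with a median of 0.08. In U138MG 1 of 10 tested rose (10%) and 5 fell (50%) (all genes: 33.9% and 33.6%), with a median of -0.29. The summed level of these markers was 546 to 555 normalized CPM in DMSO and 579 to 596 in PTDSS1i in KYSE30, and 1649 to 1804 and 1321 to 1371 in U138MG. Of the matrix genes on this list, *SPARC* had 4.38 normalized CPM in KYSE30 DMSO and 678 in U138MG DMSO, *FN1* 94.6 and 72.1, *COL1A1* 10.3 and 51.8, and *COL3A1* 1.27 and 2.49. *POSTN* and *COL1A2* had at most 3 counts in every library. *S100A4*, a calcium-binding protein gene, and *COL1A1*, a collagen gene, rose in KYSE30 by 1.80 and 0.79. *TAGLN* rose there from 0.965 to 3.23 normalized CPM (log2 1.73), and *CDH2* and *TGFBI* by 0.31 and 0.30. The call for *CDH2* was lost by library size alone, by DESeq2 and without DMSO replicate 3, among others. *FN1*, which encodes fibronectin, and *AXL*, a receptor kinase gene, fell in KYSE30 (log2 -1.28 and -0.39), as did *SPARC* and *COL3A1* (-1.24 and -1.55). *FN1*, *SPARC* and *COL3A1* fell in U138MG (log2 -0.64, -0.89 and -2.66), and *COL1A1* rose by 0.15, a call lost by library size alone and with upper-quartile scaling. After PTDSS1i, *COL3A1* had 0.425 normalized CPM in KYSE30 and 0.393 in U138MG. It passed the low-count filter in each line only with its DMSO libraries, so the filter set its direction. Of 10 transcription factors that drive the epithelial to mesenchymal transition, 3 of 7 tested rose (42.9%) and 2 fell (28.6%) in KYSE30, and 4 of 6 tested rose (66.7%) and 2 fell (33.3%) in U138MG. *SNAI1*, *SNAI2*, *ZEB1* and *ZEB2* encode repressors of *CDH1*, and their part in its changes was not tested. In KYSE30, *SNAI1* rose from a mean of 1.10 to 2.01 normalized CPM (log2 0.88), *ZEB1* from 0.256 to 0.762 (1.53, at most 27 counts a library) and *FOXC2* from 0.430 to 1.67 (1.97), while *TCF4* and *TWIST2* fell (log2 -0.52 and -0.43). *SNAI2*, with 24.3 normalized CPM in DMSO and 25.3 in PTDSS1i, was not called there. In U138MG, *SNAI1* rose from 0.626 to 3.21 normalized CPM (log2 2.35), *ZEB2* from 0.397 to 2.11 (2.40), *SNAI3* from 1.48 to 2.34 (0.66) and *TWIST2* by 0.91. *SNAI2* fell there from 13.8 to 3.58 normalized CPM (log2 -1.94), *TCF4* fell as well (-1.19), and *ZEB1* had at most 2 counts a library. *ZEB1* and *FOXC2* in KYSE30 and *ZEB2* in U138MG passed the low-count filter only with their treated libraries, so the filter set their direction. The call for *ZEB1* in KYSE30 was lost without PTDSS1i replicate 3 (adjusted p = 0.0683 by edgeR). That for *SNAI3* was lost without DMSO replicate 3 or PTDSS1i replicate 2 and with scaling by library size or upper quartile, with adjusted p between 0.0515 and 0.0704.

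Of 15 other intermediate filament and linker genes, 4 of 9 tested rose (44.4%) and 5 fell (55.6%) in KYSE30 (all genes: 30.1% and 32.0%), with a median of -0.57. *SYNC*, which rose there from 0.296 to 1.14 normalized CPM, passed the low-count filter only with its treated libraries. In U138MG 3 of 10 tested rose (30%) and 5 fell (50%) (all genes: 33.9% and 33.6%), with a median of -0.24. *LMNB1*, which encodes lamin B1, fell in both lines, in KYSE30 from 235 ± 9.51 to 60.4 ± 0.925 normalized CPM (log2 -1.96) and in U138MG (log2 -1.23). The filament genes *INA* and *LMNA* rose in KYSE30 by 0.71 and 0.52, and *NEFH* fell (log2 -1.19). In U138MG the linker genes *EPPK1* and *PLEC* rose by 0.63 and 0.41, and *SYNM* fell (log2 -0.75). As markers of other cell types, 7 leukocyte and endothelial genes had a summed level of 17.0 to 19.3 normalized CPM in KYSE30 DMSO and 42.9 to 51.2 in PTDSS1i, and 45.9 to 49.5 and 139 to 143 in U138MG. In U138MG 4 of 5 tested of these 7 rose (80%) and 1 fell (20%), each over 2-fold (8.19% and 11.6% of all genes). In KYSE30 3 of 3 tested rose (100%) and 0 fell (all genes: 30.1% and 32.0%), and all 3 rose over 2-fold (6.40% of all genes). In KYSE30 these were the endothelial cadherin gene *CDH5*, from 17.1 to 44.9 normalized CPM (log2 1.39), *VWF* (1.90, at most 18 counts a library) and *CD14* (1.13, at most 16 counts), and the call for *CD14* was lost by DESeq2 and without any 1 of DMSO replicate 1, DMSO replicate 3 and PTDSS1i replicate 2. In U138MG the lysosomal macrophage marker *CD68* rose from 27.1 to 108 normalized CPM (log2 2.00), *CDH5* from 10.5 to 26.6 (1.35), *CD14* from 0.381 to 1.87 (2.29) and *PECAM1* from 0.0309 to 1.27, while *VWF* fell from 10.2 to 2.26 (-2.17). The leukocyte markers *PTPRC* and *CD3E* had at most 8 counts in any library, and *PECAM1* and *CD68* at most 2 in KYSE30. *VWF* and *CD14* in KYSE30 and *CD14* and *PECAM1* in U138MG passed the low-count filter only with their treated libraries. The filter thus set their direction and, in part, the shares of this list. The part of the 7 genes in the members' changes was not tested. Of the 11 glial markers, 0 of 2 tested rose or fell in KYSE30 by edgeR (all genes: 30.1% and 32.0%). In U138MG 2 rose and 2 fell of 5 tested (all genes: 33.9% and 33.6%). Among these rises, *CHI3L1* (from 0.479 to 3.77 normalized CPM) passed the low-count filter only with its treated libraries, so the filter set its direction. Of 9 columnar gut markers, 2 were tested in each line and 1 rose in U138MG. It was *KRT20*, which passed the low-count filter only with its treated libraries.

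Over all 12 libraries, the genes whose log2 CPM ran most like *TP63* were *ABI2*, *PKIG* and *PRKD3* (Pearson r of 0.999, 0.998 and 0.998), searched among 11714 genes. For *CDH1* they were *CACHD1*, *DEPTOR* and *TNK1* (0.999, 0.993 and 0.988), and for *VIM* they were *KLF4*, *BCAR3* and *SEC14L1* (0.994 each). The 12 points share 2 lines and 2 treatments, so the likeness follows those groups and is given as a description.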

How the data were processed

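The authors deposited unnormalized read counts of each gene in 1 table for each line (30984 and 78691 genes). Submitters' processing notes name Trimmomatic, STAR, featureCounts and hg38, with no versions, and poly-A libraries (TruSeq). Groups came from the labels. All columns were used.

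The deposited counts were tested with edgeR 4.0.16 and limma 3.58.1 under R 4.3.3: filterByExpr (minimum count 10, minimum total 15), TMM, robust quasi-likelihood test, Benjamini-Hochberg adjustment over all genes, within each line and, for differences between lines, over both, reported only for genes that passed the filter within each line (9 members). Rose or fell means an adjusted p under 0.05. A gene low in 1 group can pass the filter through the other group alone, which then sets its direction. Log2 CPM used a prior count of 2. Intervals are 95% from the standard error. The biological coefficient of variation was 0.0549 in KYSE30 and 0.0452 in U138MG, and every pair of replicates differed beyond sampling noise (chi-square per degree of freedom 2.29 to 7.44). On simulated counts, 191 of 200 changed genes were recovered in KYSE30 (12 false calls, 16137 genes), 184 in U138MG (12, 17318 genes) and 166 for the difference between lines (7, 17598 genes). Figures used Python 3.11.15, pandas 2.3.3, scipy 1.17.1 and matplotlib 3.10.9.

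The 10 genes and the 11 gene lists were chosen with earlier results of these data known. Beyond the members, each list names up to 2 rises and 2 falls per line with at least 5 CPM, and the 3 genes most like *TP63*, *CDH1* and *VIM*. *KRT5*, *KRT20*, *SYNC*, *GFAP*, *S100B*, *OLIG1*, *OLIG2*, *POSTN*, *COL1A2*, *COL3A1*, *PTPRC*, *CD3E*, *CD14* and *PECAM1* were named after their values were seen. So were the other squamous markers named for their DMSO levels, and the factors of the epithelial to mesenchymal transition under 5 CPM. In KYSE30, *SPARC*, *VWF*, *SNAI2*, *TAGLN*, *CDH2* and *TGFBI* were also named that way, as were *KRT6A* and *CHI3L1* in U138MG. Alternatives were other scalings, DESeq2 1.42.0, other filters and thresholds, a non-robust fit, a replicate block, a joint fit, each library left out, and another gene length.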

Additional observations from a re-analysis of the deposited data

Results flagged for a closer look

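The effect of PTDSS1i differed between the lines (U138MG minus KYSE30, edgeR's quasi-likelihood test of the interaction with Benjamini-Hochberg adjustment) for 7 of the 9 members that passed the low-count filter in both lines. The log2 difference was -0.64 for *GRHL1*, -0.50 for *GRHL2*, -0.18 for *ESRP1*, -1.14 for *ESRP2*, -1.24 for *CDH1*, 0.37 for *EPCAM* and -1.17 for *KRT8*. For *CDH1*, *KRT8* and *GRHL1* each line changed in its own direction. The call for *ESRP1* was lost without any 1 of 4 libraries. As line and batch cannot be told apart, the differences are between the 2 sets of libraries as labelled.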

How the results depend on the processing

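The numbers of members that changed, rose or fell, and of those whose effect differed between lines, stayed within 1.5 times of the reported count under every alternative run. Leaving out each library in turn gave 9 to 10 changed members in KYSE30 (7 to 8 rose, 2 fell) and 9 in U138MG (3 rose, 6 fell), 6 to 7 differences between lines, 4 to 5 members over 2-fold apart in DMSO (*GRHL1* fell short without KYSE30 DMSO replicate 3), and 1 member over 2-fold in KYSE30 and 0 in U138MG. In U138MG, 1 member was over 2-fold by library size alone, with upper-quartile scaling and with at least 10 counts in every library, 5 at a 1.5-fold threshold and 9 with no fold threshold. With no fold threshold there were 9 in KYSE30 and 9 in DMSO. Library size alone moved the median of all genes by -0.11 in KYSE30 and -0.15 in U138MG, and the share of calls that rose over 2-fold from 47.6% to 38.1% and from 41.4% to 31.6%; upper-quartile scaling gave 31.7% in U138MG and, for the difference between lines, 34.6% in place of 45.0%.

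Of 285 alternative values of the members within lines, 277 kept their direction and side of the threshold. *ESRP2* in KYSE30 (adjusted p = 0.0508) passed in 6, with adjusted p between 0.00580 and 0.0467. Its log2 fold change was 0.0184 at the lowest, and its adjusted p 0.773 at the highest. *ESRP1* in U138MG turned to -0.0200 by library size alone and -0.0187 with upper-quartile scaling. The difference for *TP63*, which was not called, turned to -0.0870 with upper-quartile scaling and -0.0119 with at least 10 counts in every library, was below 0 without any 1 of 7 libraries, and ranged from -0.0374 to 0.0523 over the libraries left out. The DMSO differences kept all 180, and 1075 of 1101 values of list genes did, those of changed genes on the mesenchymal, transition-factor and leukocyte and endothelial lists having been added after the data were seen; the other 26 lost the call. The changes in the ratios, tried without each library after the data were seen, kept their direction; that of *KRT8* to *KRT18* in U138MG ranged from -1.19 to -1.15. The cause of these changes was not tested.

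The labels number the replicates alike in each group. Deviations of same-numbered DMSO and PTDSS1i libraries had correlations of -0.00288 to 0.0754, and those of differently numbered libraries -0.076 to 0.0559. All were small, so the numbers were not used as pairs, though these values cannot exclude a pairing. With a replicate block, *ESRP2* in KYSE30 had a log2 fold change of 0.12 (adjusted p = 0.0363), no other member changed its call for PTDSS1i, and 4 members were over 2-fold apart in DMSO, without *GRHL1*. Depth limits *VIM* in U138MG, at 3 to 11 counts a library, where no stricter filter kept it.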
